A study of Mus musculus with 49 samples.

Results

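The genes of the proteasome were followed in CD8+ T cells of the mouse, the cells from which killer T cells arise, over 48 hr with IL-2 in 2 mouse lines, each with WT and KI cells. The members were taken by symbol: names that begin with *Psm*, a letter from *a* to *g*, and a digit. Of the 23992 gene symbols measured, 50 matched, and 48 of them had a mean of at least 1 RPKM (reads on a transcript per kilobase of its length, scaled to library size) over the 47 libraries used. The other two, *Psma8* and *Psmb11*, are known as the testis and thymus forms and had a mean of 0.0443 and 0.842 RPKM, the latter 1.30 RPKM with the left-out library included. The lowest means among the 48 were 5.63 RPKM for *Psmc3ip* and 6.68 RPKM for *Psmd9*. Among the 48, 5 genes make up the immunoproteasome as set apart here, *Psmb8*, *Psmb9*, *Psmb10*, *Psme1*, and *Psme2*, and 43 are the remaining members. One of the 43, *Psmc3ip*, shares only the form of the name, since its protein acts in meiotic recombination, and another, *Psme2b*, is a copy of *Psme2*. The paper states that reads were kept only if uniquely mapped. Reads that match both genes may thus be missing, and both values are uncertain. All 48 passed the filter on low counts.

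In 1 mouse line the KI allele replaces the tyrosine of STAT5A that is phosphorylated on activation by phenylalanine (Y694F), and in the other it does the same in STAT5B (Y699F). The KI alleles were made with CRISPR/Cas9, also carry silent base changes, and were crossed onto C57BL/6J, and WT cells came from WT littermates. KI and WT cells of a line are called the *Stat5a* set and the *Stat5b* set. The mice were adults of either sex, and every cell in which STAT5A or STAT5B is made carries the change, not only the T cells. Splenic CD8+ T cells were enriched by negative selection with magnetic beads and collected without culture with IL-2 (0 hr) or after 4, 24, or 48 hr with 500 IU/ml of human IL-2, a cytokine that activates STAT5 and drives T cells to grow and divide. Each of the 16 groups of line, genotype, and time has 3 libraries, except for the *Stat5a* KI cells at 4 hr, which have 2 here because replicate 3 held only 1028515 reads on the transcripts used. In the 47 libraries these reads numbered 17369112 to 60200653, with a median of 41410666. One of them, the second replicate of WT cells at 4 hr in the *Stat5a* set, stood apart, with 44.9% of its mapped reads on these transcripts, and results at 4 hr in that set are given with and without it. The share of mapped reads on these transcripts also moved with time and genotype. In WT cells of the *Stat5b* set it was 70.7 to 74.1% at 0 hr, 77.9 to 80.0% at 24 hr, and 83.2 to 84.4% at 48 hr, and in KI cells 69.9 to 72.5% at 24 hr and 72.6 to 78.5% at 48 hr, below every WT library of that time. For the *Stat5a* set it was 69.2 to 71.9% at 0 hr, 74.2 to 76.0% at 24 hr, and 80.5 to 84.1% at 48 hr in WT cells, and 75.9 to 76.9% at 24 hr and 77.7 to 80.6% at 48 hr in KI cells. RPKM values are scaled to mapped reads and carry this share, while the fold changes come from the counts on these transcripts alone, and its part in the differences was not tested. The labels do not say that the 3 libraries of a group come from separate animals, so the p-values measure only the spread between these libraries.

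The proteasome is the cell's main machine for degrading proteins tagged with ubiquitin. Its 20S core is a barrel of stacked rings, with outer rings of alpha subunits that form the gate and inner rings of beta subunits, of which *Psmb5*, *Psmb6*, and *Psmb7* encode those that cut peptide bonds. The 19S regulatory particle caps the core with a base of ATPases (*Psmc* genes) that unfold substrates and a lid that removes ubiquitin. In lymphocytes, and in other cells exposed to interferon, the catalytic subunits are exchanged for *Psmb8*, *Psmb9*, and *Psmb10*, whose peptides fit MHC class I molecules well, and the 19S cap can be replaced by PA28, the product of *Psme1* and *Psme2*. NRF1, encoded by *Nfe2l1*, is known to raise the genes of the standard subunits together, whereas IRF1 and NLRC5 are known to act on the immunoproteasome genes.

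*Psmb8* (gene identifier 16913) lies on the plus strand at chr17:34198195-34201454 of GRCm38 and *Psmb9* (16912) on the minus strand at chr17:34182030-34187330, inside the MHC region. *Tap1* and *Tap2*, which encode the peptide transporter of the class I pathway, stand next to them at chr17:34187556-34197225 and chr17:34204479-34216321. *Psme1* (19186) and *Psme2* (19188) are neighbours at chr14:55578494-55581527 and chr14:55587440-55591101, *Psmb10* (19171) lies at chr8:105935728-105938392, and *Psmb5* (19173), the constitutive counterpart of *Psmb8*, at chr14:54614120-54617995. The 120 bases upstream of the annotated gene start are shown for *Psmb8* and *Psmb9*, of the immunoproteasome, and for *Psmb5*, of the other members. They come from RefSeq on GRCm38, 5′ to 3′ on the strand of the gene. Capitals mark TTCNNNGAA, the core of a STAT site, in *Psmb8* (chr17:34198075-34198194, plus strand), ATTGG, the opposite strand of CCAAT, in *Psmb9* (chr17:34187331-34187450, minus strand), and TGACNNNGC, the core of an antioxidant response element, in *Psmb5* (chr14:54617996-54618115, minus strand).
Psmb8: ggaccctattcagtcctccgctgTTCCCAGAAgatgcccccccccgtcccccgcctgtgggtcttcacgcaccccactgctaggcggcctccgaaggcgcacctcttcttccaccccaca
Psmb9: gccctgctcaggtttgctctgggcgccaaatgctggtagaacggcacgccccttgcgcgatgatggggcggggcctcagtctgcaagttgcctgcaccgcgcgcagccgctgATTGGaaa
Psmb5: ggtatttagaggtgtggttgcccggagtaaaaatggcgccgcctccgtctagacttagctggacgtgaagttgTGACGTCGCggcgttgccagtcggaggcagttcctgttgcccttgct
The *Psmb9* stretch also lies between the starts of *Psmb9* and *Tap1*, which are read in opposite directions. In windows from 250 bases before to 50 bases after the start, on both strands, 41 of the 48 members had a RefSeq promoter entry, among 27025 genes with one. TTCNNNGAA was in 7.3% of the 41 (3 genes, *Psmb8*, *Psmd2*, and *Psmg1*) and in 9.6% of all, and TGACNNNGC in 14.6% (6 genes) and in 14.0% of all. The core of an interferon response element, GAAA repeated after any pair of bases, was in 12.2% of the members (5 genes, *Psme1* the only one of the immunoproteasome) and in 4.0% of all. CCAAT was in 34.1% of the members and in 41.1% of all, and CACGTG, the E-box bound by MYC, in 9.8% and in 8.1%. These are matches of letters, some of which overlap, and not sites of binding.

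The comparison of WT cells at 0 hr and after IL-2 asks how the proteasome genes moved in culture with the cytokine. No library is of cells cultured without IL-2, so that IL-2 and time in culture cannot be told apart. After 48 hr nearly every proteasome mRNA was higher, in both sets and in every part of the particle. By the quasi-likelihood test of edgeR, adjusted after Benjamini and Hochberg over the 15566 genes tested and an adjusted p of at most 0.05 as the threshold, all 48 members were higher than at 0 hr in the *Stat5a* set, where 34.1% of all genes were, and 47 in the *Stat5b* set, where 33.1% were. None was lower, against 37.7 and 36.8% of all genes. Unless other counts are given beside it, a count of 0 of the 48 members or of the 5 immunoproteasome genes was also 0 at an unadjusted p of at most 0.05 in edgeR and by DESeq2 and limma. Of the higher members, 30 in each set were also at least 2-fold higher, against 14.3% and 14.6% of all genes. The median log2 fold change of the members was 1.15 and 1.14, and that of all genes −0.12 and −0.13. The member that did not pass was *Psme2b* in the *Stat5b* set, with a log2 fold change of 0.26 ± 0.18 (SE), adjusted p = 0.188. The largest rise belonged to *Psmc3ip*, which is not a proteasome subunit, with a log2 fold change of 2.57 and 2.62. Over the same 48 hr the summed level of 5 genes of dividing cells (*Mki67*, *Top2a*, *Mcm2*, *Ccna2*, and *Pcna*, the most abundant) also rose, with all 5 higher in both sets. Markers of other cell types moved over the same time. All 6 B cell markers were lower at 48 hr (median log2 fold change −2.66 in the *Stat5a* and −2.87 in the *Stat5b* set), as were all 7 myeloid markers (−3.75 and −4.36) and all 5 erythroid genes (−5.09 and −3.62). Of the 5 NK cell genes 5 and 4 were higher (1.81 and 1.34), of the 4 CD4 T cell genes 4 and 3 lower, and of the 6 CD8 T cell markers 3 and 5 lower and 1 and 0 higher. The NK cell list includes *Eomes*, whose protein the paper reports as induced by IL-2 in CD8+ T cells. The part of these lists in the result was not tested.

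The alpha ring moved as 1 block, with 7 of 7 genes higher at 48 hr in each set. *Psma5*, a ring subunit, had the largest change of the ring. In WT cells of the *Stat5a* set its RPKM was 27.1, 28.1, and 30.3 at 0 hr, 65.5, 67.3, and 69.2 at 24 hr, and 96.3, 102, and 109.8 at 48 hr, and in the *Stat5b* set 24.2, 29.5, and 30.1, 73.3, 76.2, and 79.7, and 105, 105, and 106.8. The libraries of the 3 times did not overlap in either set, and the log2 fold change at 48 hr was 1.64 ± 0.078 (SE, adjusted p = 5.20e-20) and 1.75 ± 0.079 (SE, adjusted p = 9.92e-21). *Psma2*, with the smallest mean change of the ring over both sets, started at a higher level, 91.3, 106.1, and 106.5 RPKM at 0 hr in the *Stat5b* set, and reached 217, 219, and 221 RPKM at 48 hr. Its groups did not overlap either, and its log2 fold change was 1.01 ± 0.071 and 0.94 ± 0.071 (SE) in the 2 sets.

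The non-catalytic beta subunits differed more among themselves. *Psmb2* rose from 43.7, 45.5, and 46.9 RPKM to 143.2, 143.3, and 159.7 RPKM in the *Stat5a* set and from 45.6, 51.6, and 55.0 RPKM to 157, 158, and 159 RPKM in the *Stat5b* set. *Psmb1* was at 93.3, 98.5, and 100.3 RPKM and 99.9, 111.2, and 115.8 RPKM at 0 hr and at 142.7, 148.2, and 156 RPKM and 154, 156, and 160.2 RPKM at 48 hr. Neither gene's groups overlapped, yet the log2 fold changes were 1.51 and 1.47 for *Psmb2* and 0.41 and 0.35 for *Psmb1*, each past the threshold. The 4 genes of this list were all higher in both sets.

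The 3 constitutive catalytic subunits rose in steps. *Psmb5*, whose product cuts after hydrophobic residues, had 35.4, 37.5, and 41.7 RPKM at 0 hr, 74.7, 74.7, and 75.0 RPKM at 24 hr, and 113.1, 113.3, and 126.5 RPKM at 48 hr in the *Stat5a* set. Values in the *Stat5b* set were 39.1, 40.9, and 43.0, 85.0, 89.9, and 94.96, and 120.9, 122.5, and 127.01 RPKM. The 3 times were separate in each set, and *Psmb5* was higher at 48 hr than at 24 hr by 0.61 ± 0.15 (SE, adjusted p = 8.24e-04) and 0.47 ± 0.15 (SE, adjusted p = 0.00947) on the log2 scale. *Psmb6*, the caspase-like subunit, went from 49.5, 49.8, and 53.1 RPKM through 64.9, 69.7, and 71.2 RPKM to 91.7, 106.3, and 110.997 RPKM in the *Stat5a* set and from 48.2, 51.6, and 52.4 RPKM through 73.7, 74.4, and 81.1 RPKM to 103, 108.7, and 110.97 RPKM in the *Stat5b* set. *Psmb7*, the trypsin-like subunit, went from 50.8, 50.9, and 50.9 RPKM through 68.5, 74.6, and 78.6 RPKM to 110.5, 132.5, and 134.3 RPKM and from 41.1, 47.3, and 49.4 RPKM through 79.9, 80.5, and 88.8 RPKM to 124.7, 134.1, and 135.7 RPKM. Both genes took the larger of the 2 steps after 24 hr in the *Stat5a* set, with log2 fold changes of 0.26 and 0.37 up to 24 hr and 0.55 and 0.73 from 24 to 48 hr. In the *Stat5b* set the 2 steps were 0.404 and 0.505 for *Psmb6* and nearly equal for *Psmb7* (0.669 and 0.676). *Psmb5* took the larger step up to 24 hr in both sets (0.80 and 0.946).

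**Figure D1:**
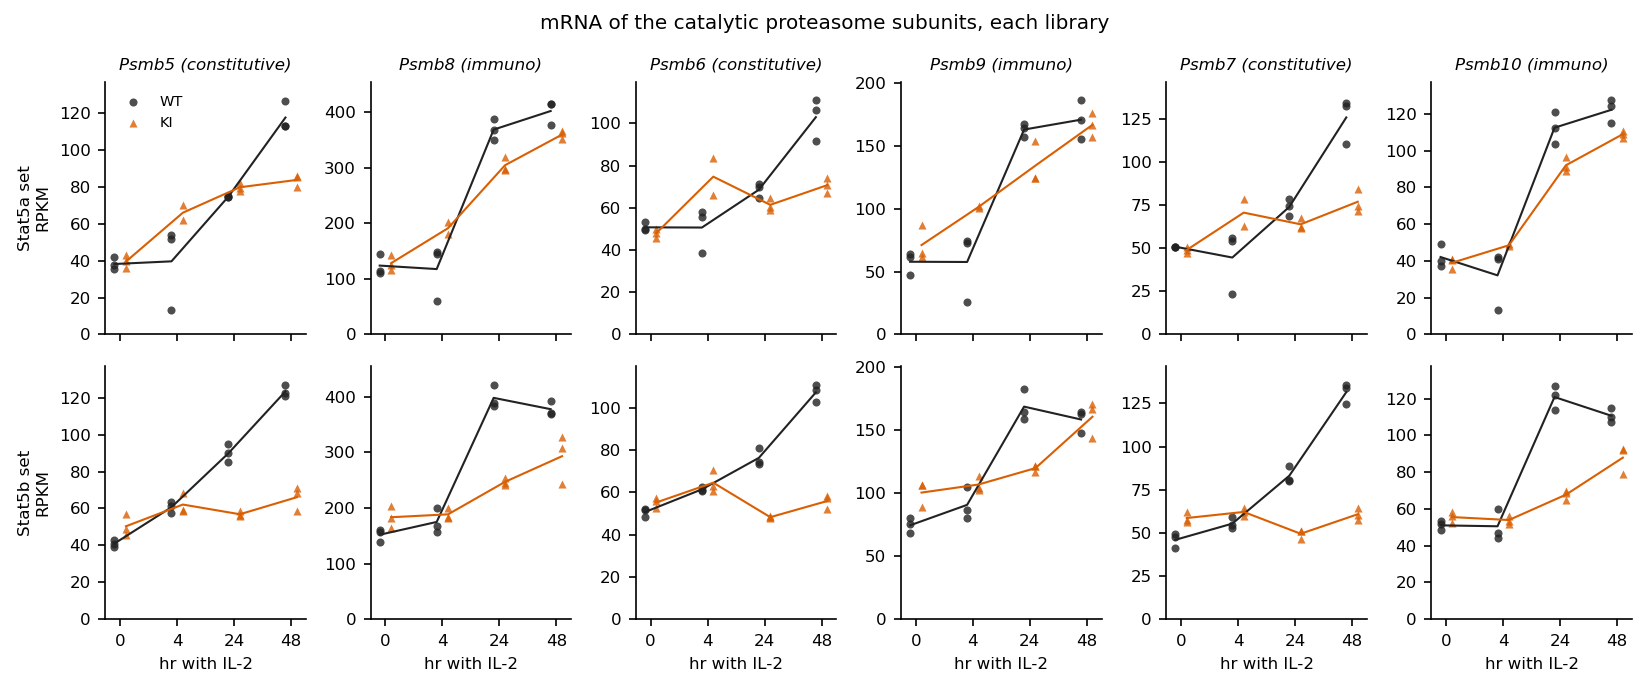
RPKM of the constitutive catalytic subunits (*Psmb5*, *Psmb6*, *Psmb7*) and of their immunoproteasome counterparts (*Psmb8*, *Psmb9*, *Psmb10*) against time with IL-2 (hr, evenly spaced), *Stat5a* set above and *Stat5b* set below; each point is a library, lines join group means, circles are WT and triangles KI. In WT cells of the *Stat5b* set *Psmb5* climbs to 120.9, 122.5, and 127.01 RPKM at 48 hr while *Psmb8* is as high at 24 hr as at 48 hr.

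In the 19S base, 6 of 6 ATPase genes and 3 of 3 other base genes were higher at 48 hr in each set. *Psmc1* went from 34.2, 38.3, and 39.0 RPKM to 111.9, 115.5, and 116.6 RPKM in the *Stat5b* set, with log2 fold changes of 1.35 and 1.45 in the *Stat5a* and *Stat5b* sets. *Psmc6*, the ATPase gene with the smallest mean change, went from 30.7, 34.6, and 34.8 RPKM to 70.2, 70.2, and 74.3 RPKM in the *Stat5b* set, with log2 fold changes of 0.59 and 0.93. *Psmd1*, the largest base subunit and a scaffold, and *Psmd4*, a ubiquitin receptor, lay far apart. *Psmd1* rose from 18.4, 18.8, and 19.9 RPKM to 57.4, 61.7, and 67.9 RPKM in the *Stat5a* set and from 18.1, 19.2, and 19.6 RPKM to 64.2, 66.1, and 67.1 RPKM in the *Stat5b* set. *Psmd4* was at 49.4, 52.6, and 57.1 RPKM and 51.3, 56.3, and 60.5 RPKM at 0 hr and at 70.8, 75.7, and 84.2 RPKM and 79.6, 80.8, and 81.0 RPKM at 48 hr. Their groups at 0 and 48 hr did not overlap, and the log2 fold changes were 1.505 and 1.62 for *Psmd1* and 0.33 and 0.35 for *Psmd4*.

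The lid behaved alike, with 8 of 8 genes higher at 48 hr in each set. *Psmd7*, which pairs with the deubiquitinase subunit *Psmd14*, had the largest change, from 21.4, 23.9, and 24.6 RPKM to 79.1, 79.8, and 81.5 RPKM in the *Stat5b* set, and *Psmd8* the smallest, from 55.6, 62.1, and 62.1 RPKM to 80.4, 81.4, and 81.9 RPKM. *Psmd8* was lower at 4 hr than at 0 hr in both sets, with log2 fold changes of −0.52 (−0.44 without replicate 2 of the *Stat5a* set) and −0.36, was not past the threshold at 24 hr (−0.14 and −0.068), and was higher at 48 hr by 0.21 and 0.27. All 7 genes of the assembly chaperones, which help to build the rings and the base and leave the finished particle, were higher at 48 hr in both sets. *Psmg3* rose from 4.10, 4.25, and 4.43 RPKM to 18.01, 20.3, and 20.5 RPKM in the *Stat5a* set and from 3.98, 4.31, and 4.48 RPKM to 20.4, 20.6, and 22.1 RPKM in the *Stat5b* set, with log2 fold changes of 1.996 ± 0.12 and 2.13 ± 0.12 (SE), the largest of any chaperone. *Psmd9*, a chaperone of the base, was lower at 4 hr in both sets (−0.65, or −0.52 without that replicate, and −0.46) and higher at 48 hr (0.24 and 0.26).

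The nuclear activator PA28gamma, encoded by *Psme3*, rose in both steps in each set. *Psme3* had 46.4, 49.6, and 50.5 RPKM at 0 hr, 84.5, 85.9, and 86.5 RPKM at 24 hr, and 117.1, 118.3, and 120.02 RPKM at 48 hr in the *Stat5b* set, and 46.0, 49.8, and 52.7, 77.1, 78.0, and 82.1, and 104, 113.7, and 121.96 RPKM in the *Stat5a* set. The 3 times did not overlap in either set. *Psme4*, which encodes PA200, another nuclear activator, was higher at 4 hr than at 0 hr, with log2 fold changes of 0.42 (0.49 without replicate 2 at 4 hr) and 0.39. Against 0 hr it stood at 0.29 and 0.16 at 24 hr, the latter not past the threshold, and at 0.43 and 0.52 at 48 hr. From 4 to 24 hr *Psme4* was lower in the *Stat5b* set (−0.23, adjusted p = 0.0199).

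In the immunoproteasome all genes had risen by 24 hr and none rose further. At 24 hr 41 of the 48 members were higher than at 0 hr in the *Stat5a* set (30.1% of all genes) and 42 in the *Stat5b* set (29.5%), all 5 of the immunoproteasome among them. From 24 to 48 hr, 38 members were higher in the *Stat5a* set (22.8% of all genes) and 39 in the *Stat5b* set (21.5%), and none of the 5 was. Of the 43 other members, 38 and 39 were. The median log2 fold change from 24 to 48 hr was 0.03 and −0.12 for the 5 immunoproteasome genes, 0.53 and 0.48 for the other 43, and −0.038 for all genes in each set. The steps up to and from 24 hr share the libraries at 24 hr and are not independent. Lower at 48 hr than at 24 hr in the *Stat5b* set (18.4% of all genes) were 2 members, *Psme2* and its copy *Psme2b*, named here after their values were seen, and none in the *Stat5a* set (19.9%), with 1 at an unadjusted p, none by DESeq2, and 1 by limma.

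*Psmb8*, the counterpart of *Psmb5*, had 111.5, 115.1, and 145.3 RPKM at 0 hr, 351, 368, and 388 RPKM at 24 hr, and 377, 414, and 416 RPKM at 48 hr in the *Stat5a* set. For the *Stat5b* set they were 138.3, 157, and 160.1, 384, 389, and 422, and 370.0, 371, and 393 RPKM. The libraries at 24 and 48 hr overlapped in each set and were all above those at 0 hr. The log2 fold change of *Psmb8* was 1.40 ± 0.11 (SE, adjusted p = 1.79e-13) and 1.21 ± 0.11 (SE, adjusted p = 7.34e-12) up to 24 hr, and 0.088 ± 0.11 (SE, adjusted p = 0.537) and −0.063 ± 0.11 (SE, adjusted p = 0.674) from 24 to 48 hr. *Psmb9*, the counterpart of *Psmb6*, went from 47.5, 61.6, and 64.3 RPKM through 157, 164, and 167 RPKM to 155, 171, and 186 RPKM and, in the *Stat5b* set, from 68.1, 75.6, and 80.0 RPKM through 159, 165, and 183 RPKM to 148.2, 163, and 165 RPKM. *Psmb10*, the counterpart of *Psmb7*, went from 37.1, 40.0, and 49.4 RPKM through 104, 112.5, and 121.3 RPKM to 115.1, 124.3, and 127.5 RPKM and from 48.4, 51.6, and 53.2 RPKM through 113.9, 121.9, and 126.8 RPKM to 107.4, 109.8, and 114.7 RPKM. Both overlapped between 24 and 48 hr in each set, and neither passed the threshold in that step.

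Both PA28 genes had lower RPKM values at 48 hr than at 24 hr. *Psme1* had 197, 210.1, and 225 RPKM at 0 hr, 419, 426, and 439 RPKM at 24 hr, and 371, 384, and 395 RPKM at 48 hr in the *Stat5a* set and 217, 237, and 241, 419, 431, and 446, and 334, 335, and 364 RPKM in the *Stat5b* set. Its 24 and 48 hr libraries did not overlap in RPKM, but the log2 fold changes of −0.20 ± 0.15 and −0.32 ± 0.15 (SE) did not pass the threshold (adjusted p = 0.304 and 0.0918). *Psme2* had 108.2, 108.7, and 130.2, 302, 305, and 312, and 271, 298, and 299 RPKM at the 3 times in the *Stat5a* set and 125.4, 137.4, and 139.4, 317, 324, and 344, and 268, 268, and 271 RPKM in the *Stat5b* set. It was lower at 48 hr than at 24 hr in the *Stat5b* set, with a log2 fold change of −0.27 ± 0.084 (SE, adjusted p = 0.00832), and had a log2 fold change of −0.12 in the *Stat5a* set (adjusted p = 0.258).

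**Figure D2:**
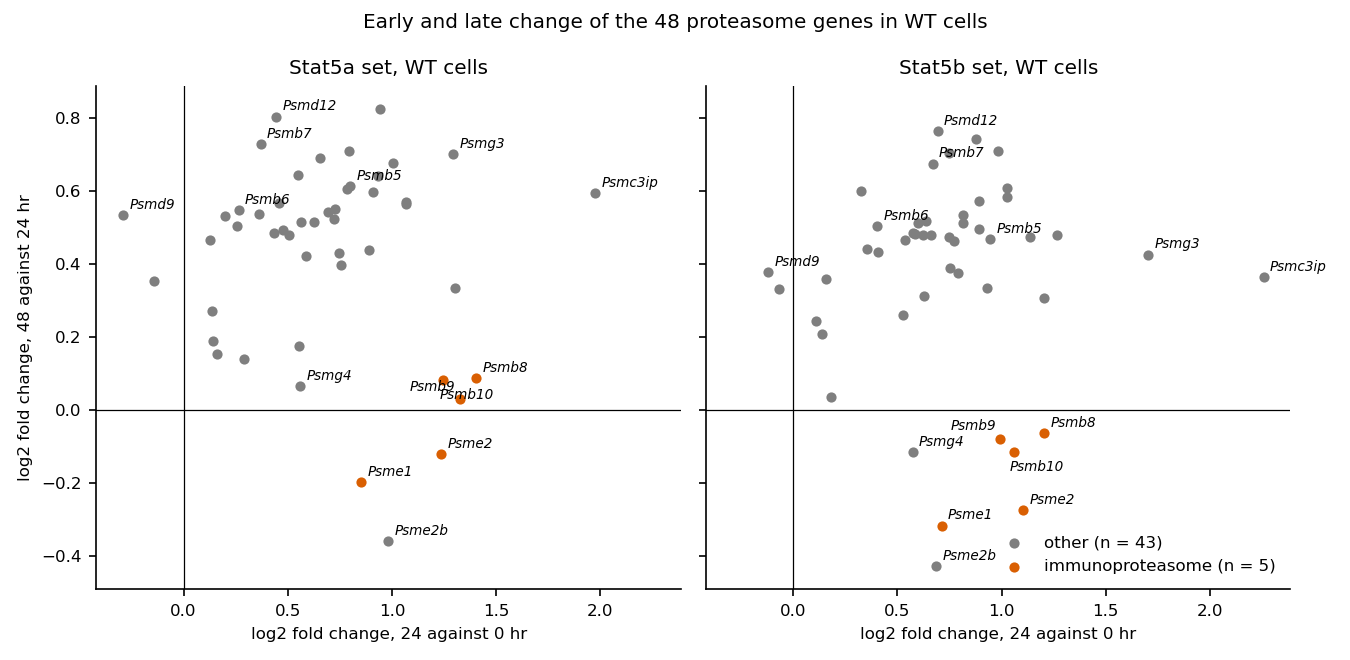
Log2 fold change of the 48 members in WT cells from 0 to 24 hr (horizontal) and from 24 to 48 hr (vertical), 1 panel for each set; each point is a gene, orange for the 5 immunoproteasome genes and grey for the other 43. The 5 orange points lie at 0.71 or more on the horizontal axis and between −0.32 and 0.088 on the vertical axis, below most grey points.

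Summed over genes, the 5 immunoproteasome members in WT cells had 550.4 ± 57.7 RPKM (SD, n = 3) at 0 hr, 1378 ± 40.2 at 24 hr, and 1368 ± 68.0 at 48 hr in the *Stat5a* set. The sums in the *Stat5b* set were 643 ± 40.1, 1448 ± 53.6, and 1260.0 ± 40.4 RPKM. The 43 other members had 1557 ± 87.0, 2596 ± 34.5, and 3754 ± 226 RPKM in the *Stat5a* set and 1632 ± 101, 2923 ± 111.6, and 3937 ± 43.7 RPKM in the *Stat5b* set. The second sum thus kept growing between 24 and 48 hr while the first did not.

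Within each catalytic pair, the share of the immunoproteasome mRNA in the RPKM of both genes was highest at 24 hr in WT cells. For *Psmb9* in *Psmb9* plus *Psmb6* it was 49.0, 54.8, and 55.3% at 0 hr, 69.3, 69.8, and 72.0% at 24 hr, and 59.4, 62.6, and 65.1% at 48 hr in the *Stat5a* set. It was, in the *Stat5b* set, 58.5, 59.4, and 60.4%, 67.0, 68.3, and 71.1%, and 57.7, 59.8, and 61.3%. For *Psmb10* in *Psmb10* plus *Psmb7* the means at 0, 24, and 48 hr were 45.2, 60.3, and 49.4% in the *Stat5a* set and 52.7, 59.3, and 45.7% in the *Stat5b* set. For *Psmb8* in *Psmb8* plus *Psmb5* they were 76.3, 83.1, and 77.4% and 78.7, 81.6, and 75.4%. In all 3 pairs and both sets the libraries at 24 hr lay above those at 0 hr and above those at 48 hr without overlap, with 3 libraries a group, for which an exact two-sided permutation test cannot go below p = 0.10.

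At 4 hr the members did not move together. WT cells of the *Stat5a* set had 18 higher (29.5% of all genes) and 10 lower (28.9%), and those of the *Stat5b* set 20 higher (25.1%) and 3 lower (24.5%). In the *Stat5a* set, leaving out replicate 2 at 4 hr, 19 were higher (28.3% of all genes) and 6 lower (30.0%). The count of higher members there was 11 by limma and 5 with only the groups compared, and in the *Stat5b* set 12 with all 48 libraries. The range in the *Stat5b* set ran from −0.46 for *Psmd9* to 0.91 for *Psmg3*. None of the 5 immunoproteasome genes passed in that set, where they lay between −0.19 (*Psmb10*) and 0.11 (*Psmb9*). In the *Stat5a* set *Psmb10* was lower (−0.43) and *Psme1* higher (0.46), and with replicate 2 left out neither passed and the change of *Psme1* was −0.064. From 4 to 24 hr 43 members were higher in each set (26.8 and 23.6% of all genes), all 5 of the immunoproteasome included. Without replicate 2 at 4 hr 44 were higher in the *Stat5a* set (25.9% of all genes), and 26 with only the groups compared.

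The comparison of KI with WT cells asks how these genes differ where the tyrosine of either STAT5 protein is replaced. The paper reports fewer memory and virtual memory CD8+ T cells in the spleens of both KI lines. The CD8+ T cells compared thus also differ in make-up, and the part of this in the results was not tested. Without IL-2 the proteasome genes differed little. None of the 48 members of the *Stat5a* set passed the threshold in either direction (2.56% of all genes were higher and 0.880% lower) by edgeR, and 1 in each direction had an unadjusted p of at most 0.05. DESeq2 and limma also called none. The log2 fold changes ran from −0.28 (*Psmg1*) to 0.28 (*Psmb9*). KI cells of the *Stat5b* set had 7 higher (13.6% of all genes) and none lower (9.26%). The 7 were *Psma1*, *Psma3*, *Psma4*, *Psma5*, *Psmb7*, *Psmb9*, and *Psmd1*, chosen for naming after their values were seen, with log2 fold changes of 0.18 to 0.37. The count fell to 1 without replicate 1 of the WT or replicate 2 of the KI cells, to 2 without replicate 2 of the WT cells, and to 4 without replicate 3 of either. It was 2 by limma, 1 with all 48 libraries, 3 without the filter on low counts, and 11 by DESeq2. In the same KI cells 3 of the 5 genes of dividing cells were higher, at least 2-fold each, as were all 6 B cell markers, 6 of 7 myeloid markers, and all 5 erythroid genes, and their part in the result was not tested. *Psmb9*, the largest, had 68.1, 75.6, and 80.0 RPKM in WT cells and 88.8, 106.3, and 106.5 RPKM in KI cells, which did not overlap.

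After 4 hr of IL-2, 1 member passed in the *Stat5b* set, *Psme3*, which was lower in KI cells with a log2 fold change of −0.23 ± 0.071 (SE, adjusted p = 0.0131), where 12.8% of all genes were lower, and none was higher, where 14.5% were. In the *Stat5a* set, 27 members were higher in KI cells (11.9% of all genes) and 1 lower (12.7%). That count was 1 without replicate 1 of the KI cells and 24 without their replicate 2, where the 1 KI library left is assumed to vary like the other groups. It was 20 without replicate 2 of the WT cells (6.42% of all genes), 3 with all 48 libraries, and 0 with only the 2 groups in the fit. Without replicate 2 of the WT cells the lower member did not pass either (5.81% of all genes were lower). *Psmb5* shows the spread, with 13.2, 52.0, and 53.8 RPKM in the 3 WT libraries, the lowest in replicate 2, and 62.0 and 70.0 RPKM in the 2 KI libraries. In the same KI cells 3 of 6 B cell and 4 of 7 myeloid markers were higher, each at least 2-fold. Of the 5 NK cell genes 3 were lower, and the part of these lists in the result was not tested.

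After 24 hr many proteasome genes were lower in KI cells. In the *Stat5b* set 46 of the 48 members were lower, against 26.3% of all genes, with a median log2 fold change of −0.72 beside 0.068 for all genes. Fewer, 23, were lower in the *Stat5a* set, against 9.01% of all genes, with a median of −0.22 beside 0.011, and the difference between the sets was not tested at this time. The 23 became 9 and 8 by limma on log2(RPKM + 1) and log2(RPKM + 0.1) and 5 with all 48 libraries. No member was higher in either set (24.1 and 9.49% of all genes were). *Psmc3ip* (−1.73) and *Psmg3* (−1.11) were at least 2-fold lower in the *Stat5b* set (5.77% of all genes). The members that did not pass there, *Psme4* and *Psme2b*, had log2 fold changes of −0.021 and −0.19.

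The immunoproteasome genes were among those lower at 24 hr in the *Stat5b* set. All 5 of its genes passed, with log2 fold changes of −0.86 (*Psmb10*) to −0.52 (*Psmb9*), and 41 of the other 43. *Psmb8* had 384, 389, and 422 RPKM in WT cells and 242, 246, and 254 RPKM in KI cells, a log2 fold change of −0.72 ± 0.11 (SE, adjusted p = 1.01e-06). *Psme1* had 419, 431, and 446 RPKM and 260.5, 264, and 274 RPKM, and *Psmb10* 113.9, 121.9, and 126.8 RPKM and 64.7, 68.8, and 69.7 RPKM. None of these groups overlapped. *Psmb5* stood at 85.0, 89.9, and 94.96 RPKM and 55.8, 56.4, and 58.4 RPKM, a log2 fold change of −0.69 ± 0.15 (SE, adjusted p = 1.67e-04). In the *Stat5a* set *Psmb8*, *Psmb10*, and *Psme2* were lower in KI cells, with log2 fold changes of −0.34, −0.35, and −0.31. *Psmb9* and *Psme1* had like values, −0.35 and −0.36, with adjusted p of 0.0655 and 0.0911. *Psmb5* did not pass there, with 74.7, 74.7, and 75.0 RPKM in WT cells and 77.8, 79.3, and 82.3 RPKM in KI cells and a log2 fold change of 0.028 (adjusted p = 0.936).

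After 48 hr nearly all core and regulatory subunits were lower in KI cells, whereas the median log2 fold change of the immunoproteasome genes lay nearer to 0. B cell and myeloid markers were higher and genes of dividing cells lower in the same KI cells at 24 and 48 hr, and their part in the result was not tested. KI cells of the *Stat5b* set had 45 members that were lower, against 30.5% of all genes, 19 of them at least 2-fold (9.81% of all genes), with a median log2 fold change of −0.93 beside 0.10 for all genes. Lower members numbered 40 in the *Stat5a* set, against 22.8% of all genes, none by 2-fold (2.43% of all genes), with a median of −0.56 beside 0.038. No member was higher in either set (33.1 and 21.5% of all genes were), with 1 called higher by limma in the *Stat5b* set. Of the 43 members outside the immunoproteasome, 42 were lower in the *Stat5b* set and 40 in the *Stat5a* set, with medians of −0.97 and −0.59. Of the 5 immunoproteasome genes, 3 were lower in the *Stat5b* set and none in the *Stat5a* set, with medians of −0.38 and −0.17. In the *Stat5a* set 1 of the 5 was lower at an unadjusted p of at most 0.05, 2 by DESeq2, and none by limma.

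By part of the particle, 7 of 7 alpha ring genes, 3 of 3 constitutive catalytic genes, 4 of 4 other beta genes, 9 of 9 base genes, and 8 of 8 lid genes were lower at 48 hr in KI cells of each set. Of the 7 assembly chaperones, 7 were lower in the *Stat5b* set and 6 in the *Stat5a* set. *Psmb5* had 120.9, 122.5, and 127.01 RPKM in WT cells and 58.8, 68.5, and 71.0 RPKM in KI cells of the *Stat5b* set, and 113.1, 113.3, and 126.5 RPKM and 80.1, 85.5, and 85.8 RPKM in the *Stat5a* set. The groups did not overlap in either set, and the log2 fold change was −0.98 ± 0.15 (SE, adjusted p = 4.25e-07) and −0.54 ± 0.15 (SE, adjusted p = 0.00272). *Psmb6* had 103, 108.7, and 110.97 RPKM and 52.0, 57.6, and 58.3 RPKM in the *Stat5b* set, and *Psmb7* 124.7, 134.1, and 135.7 RPKM and 57.5, 60.1, and 64.6 RPKM. Their log2 fold changes were −1.02 and −1.19 in that set and −0.59 and −0.76 in the *Stat5a* set.

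Several regulatory, core and chaperone members separated the genotypes in the *Stat5b* set at 48 hr. *Psma5* had 105, 105, and 106.8 RPKM in WT cells and 40.2, 51.0, and 53.4 RPKM in KI cells of the *Stat5b* set, *Psmd1* 64.2, 66.1, and 67.1 RPKM and 27.7, 28.7, and 30.9 RPKM, and *Psmd7* 79.1, 79.8, and 81.5 RPKM and 35.3, 37.2, and 38.2 RPKM. *Psmg3* had 20.4, 20.6, and 22.1 RPKM and 8.56, 9.23, and 10.2 RPKM, and *Psme3* 117.1, 118.3, and 120.02 RPKM and 52.9, 58.8, and 59.1 RPKM. In these 5 genes every KI library was below every WT library, with log2 fold changes of −1.14 to −1.26. At the other end, *Psmd4* had 79.6, 80.8, and 81.0 RPKM and 58.6, 64.9, and 65.3 RPKM (−0.43), *Psmb1* 154, 156, and 160.2 RPKM and 104, 125.3, and 128.2 RPKM (−0.47), and *Psme4* 14.7, 14.8, and 15.4 RPKM and 12.2, 12.7, and 12.9 RPKM (−0.33), again with no overlap. *Psmf1*, an inhibitor of the proteasome, had −0.25 in the *Stat5b* set, past the threshold, and −0.18 in the *Stat5a* set (adjusted p = 0.124). Comparisons of KI with WT cells at 48 hr and of 48 hr with 0 hr in WT cells share the WT libraries at 48 hr, so that their values for a gene are not independent.

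Among the immunoproteasome genes at 48 hr, *Psmb9* had the log2 fold changes nearest to 0. It had 148.2, 163, and 165 RPKM in WT cells and 144.2, 167, and 171 RPKM in KI cells of the *Stat5b* set, and 155, 171, and 186 RPKM and 157, 167, and 176 RPKM in the *Stat5a* set. Both pairs of groups overlapped, and the log2 fold changes were −0.059 ± 0.13 (SE, adjusted p = 0.711) and −0.086 ± 0.13 (SE, adjusted p = 0.639). *Psmb8* had 370.0, 371, and 393 RPKM and 243, 309, and 328 RPKM in the *Stat5b* set and 377, 414, and 416 RPKM and 351, 362, and 366 RPKM in the *Stat5a* set. The KI libraries were below the WT libraries in both sets, and the log2 fold change was −0.45 ± 0.11 (SE, adjusted p = 5.67e-04) and −0.21 ± 0.11 (SE, adjusted p = 0.114). *Psmb10* had 107.4, 109.8, and 114.7 RPKM and 78.9, 92.3, and 92.5 RPKM in the *Stat5b* set, and *Psme2* 268, 268, and 271 RPKM and 192, 228, and 233 RPKM. Both were lower in KI cells there, with log2 fold changes of −0.41 (adjusted p = 0.00421) and −0.38 (adjusted p = 1.44e-04). *Psme1* had a log2 fold change of −0.23 (adjusted p = 0.189), with 334, 335, and 364 RPKM in WT cells and 290.0, 318, and 325 RPKM in KI cells. The 3 calls in the *Stat5b* set were lost with all 48 libraries in the fit and with limma on RPKM.

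**Figure D3:**
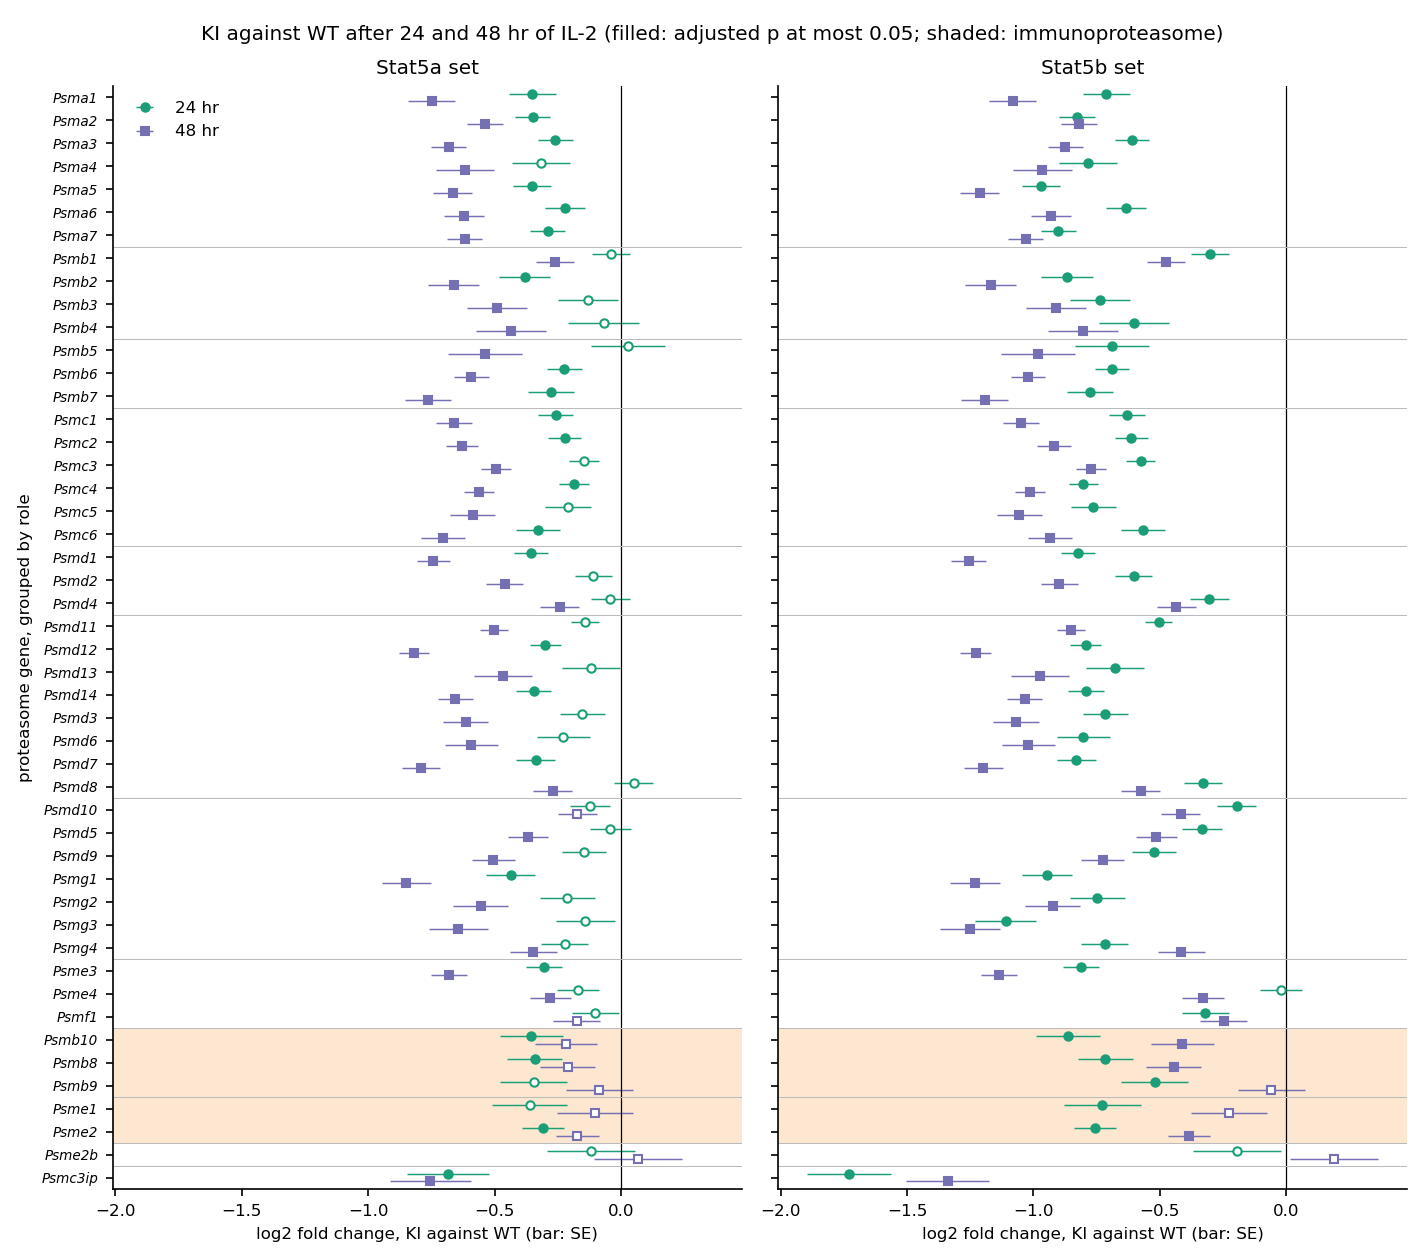
Log2 fold change of KI against WT cells (horizontal, bars are SE) for each of the 48 members, grouped by role, at 24 hr (green circles) and 48 hr (purple squares), 1 panel for each set; filled symbols have an adjusted p of at most 0.05 and the shaded rows are the immunoproteasome. In the rows outside the shading most squares lie to the left of the circles, and in the 5 shaded rows they lie to the right.

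Whether the KI effect itself differed between 24 and 48 hr was tested for each gene in the same fit, a comparison added after the values were seen. In the *Stat5a* set 18 members had a KI effect that was lower at 48 hr than at 24 hr (4.75% of all genes) and none a higher one (3.20%), and in the *Stat5b* set 9 had a lower one (4.18%) and 1 a higher one (5.15%). All of the lower ones were outside the immunoproteasome. By limma on RPKM 3 and 0 members had a lower KI effect at 48 hr in the *Stat5a* and *Stat5b* sets, by DESeq2 29 and 22, and with all 48 libraries 1 in each, so that these counts depend on the fit. *Psmb7* had a difference of −0.48 ± 0.13 (SE, adjusted p = 0.0149) and −0.42 ± 0.13 (SE, adjusted p = 0.0327) on the log2 scale. *Psmd12*, a lid subunit named here after its values were seen, had −0.52 (adjusted p = 4.38e-04) and −0.43 (adjusted p = 0.00110). The 5 immunoproteasome genes all had positive differences, 0.13 to 0.26 in the *Stat5a* set and 0.27 to 0.50 in the *Stat5b* set, that is, log2 fold changes nearer to 0 at 48 hr, and of these only *Psme2* in the *Stat5b* set passed (0.37 ± 0.12, SE, adjusted p = 0.0393). *Psme1* had 0.50 ± 0.21 (SE, adjusted p = 0.140) and *Psmb9* 0.46 ± 0.19 (SE, adjusted p = 0.122) in that set. The call of *Psme2* was lost with each of 10 of the 12 libraries left out in turn (adjusted p = 0.0679 to 0.126), with all 48 libraries, without the filter on low counts, and with limma.

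Within KI cells the summed levels of both classes are given by time. In the *Stat5b* set the remaining 43 had 1810.0 ± 94.5 RPKM (SD, n = 3) at 0 hr, 1875 ± 16.6 RPKM at 24 hr, and 2218 ± 187 RPKM at 48 hr in sum, and the immunoproteasome 748 ± 62.1, 899 ± 13.9, and 1071 ± 106.7 RPKM. In KI cells of the *Stat5a* set the other members had 1545 ± 56.7, 2349 ± 45.5, and 2649 ± 157 RPKM, and the immunoproteasome 564 ± 52.1, 1139 ± 63.4, and 1271 ± 19.1 RPKM. At 48 hr the share of the immunoproteasome mRNA in each catalytic pair was larger in KI than in WT cells. For *Psmb9* in *Psmb9* plus *Psmb6* it was 73.5, 74.1, and 74.8% in KI cells and 57.7, 59.8, and 61.3% in WT cells of the *Stat5b* set, and 70.0, 70.1, and 70.4% and 59.4, 62.6, and 65.1% in the *Stat5a* set. For *Psmb10* in *Psmb10* plus *Psmb7* it was 57.9, 58.8, and 60.6% and 44.5, 44.7, and 47.9%, and 56.8, 59.4, and 59.9% and 46.1, 48.4, and 53.6%. For *Psmb8* in *Psmb8* plus *Psmb5* it was 80.5, 81.8, and 82.2% and 74.5, 75.1, and 76.5%, and 80.9, 81.0, and 81.4% and 76.6, 76.9, and 78.6%. In none of the 3 pairs did KI and WT libraries overlap in either set, with 3 libraries a group and no test. At 0 and 24 hr the genotypes overlapped in each pair and set, with 3 exceptions. The share of *Psmb8* was smaller in KI cells of the *Stat5a* set at 24 hr, 78.4 to 80.1% against 82.4 to 83.8%. In the *Stat5b* set at 0 hr the share of *Psmb10* was smaller in KI cells, 47.6 to 49.7% against 51.1 to 54.1%, and that of *Psmb9* larger, 62.8 to 65.6% against 58.5 to 60.4%.

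**Figure D4:**
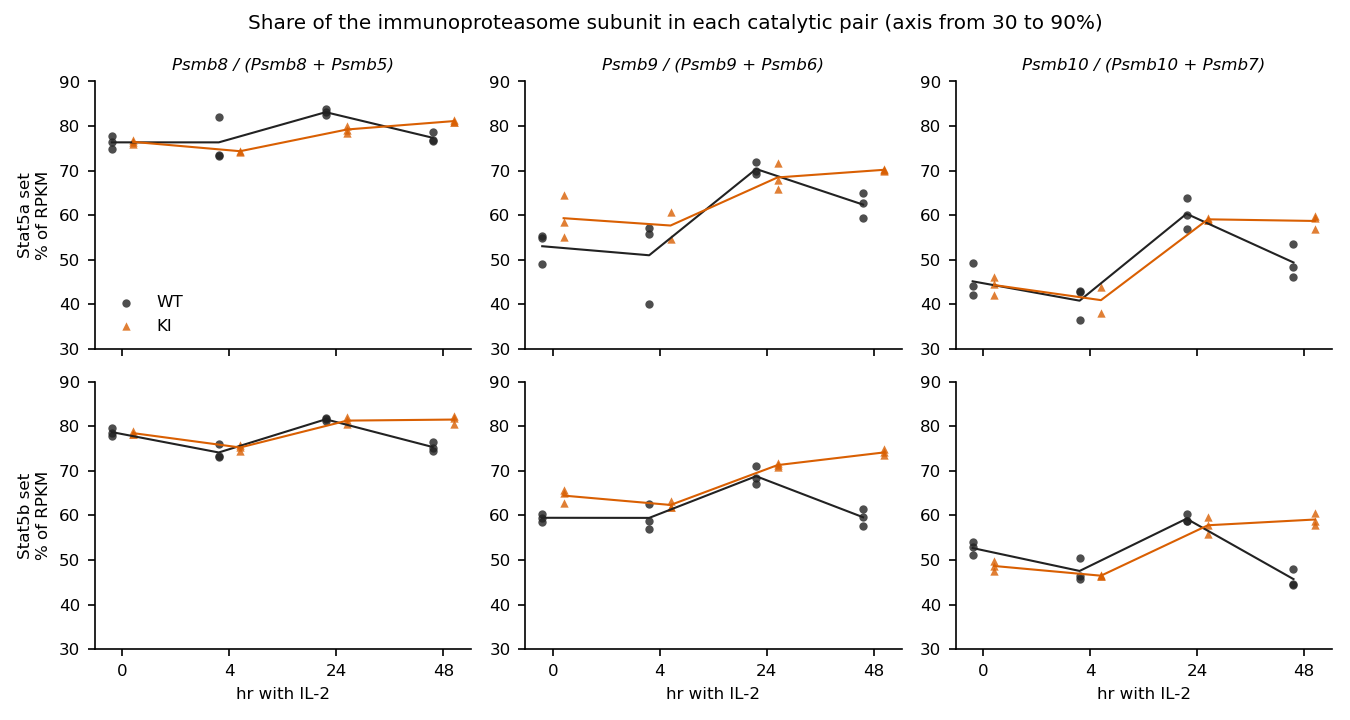
Share of the immunoproteasome subunit in the RPKM of each catalytic pair (%, axis from 30 to 90) against time with IL-2 (hr, evenly spaced), *Stat5a* set above and *Stat5b* set below; each point is a library, lines join group means, circles are WT and triangles KI. WT shares are highest at 24 hr, while KI shares at 48 hr lie above those of WT in all 6 panels.

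The change from 0 to 48 hr was smaller in KI than in WT cells for most members. As an interaction term in edgeR, 44 members had a lower response in KI cells of the *Stat5b* set, against 25.6% of all genes, 26 of them at least 2-fold lower (11.1% of all genes), and 35 in the *Stat5a* set, against 16.2%. The 35 became 22 and 20 by limma on log2(RPKM + 1) and log2(RPKM + 0.1) and 20 with all 48 libraries. None had a higher response in either set (23.8 and 11.8% of all genes). *Psma5* had an interaction of −1.55 ± 0.11 (SE, adjusted p = 5.34e-14) in the *Stat5b* set and −0.71 ± 0.11 (SE, adjusted p = 6.17e-06) in the *Stat5a* set. In the immunoproteasome, *Psmb8* (−0.66), *Psmb10* (−0.47), and *Psme2* (−0.50) passed in the *Stat5b* set and none in the *Stat5a* set, where the 5 lay between −0.36 and −0.083.

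For a part of the members the KI effect at 48 hr was larger in the *Stat5b* set. In the test of the difference between the sets, 20 members had a lower value in the *Stat5b* set, against 7.83% of all genes, and none a higher one (3.20%). All 20 were outside the immunoproteasome, whose 5 genes had differences of −0.23 (*Psmb8*) to 0.027 (*Psmb9*). *Psmd1* had a difference of −0.51 ± 0.094 (SE, adjusted p = 4.37e-04), *Psma5* −0.55 ± 0.11 (SE, adjusted p = 8.63e-04), and *Psmg3*, the largest, −0.61 ± 0.17 (SE, adjusted p = 0.0140). The count was 2 with all 48 libraries, 4 and 3 by limma on log2(RPKM + 1) and log2(RPKM + 0.1), and 32 with only the 4 groups compared in the fit. By the same test 4 of 5 erythroid, 2 of 6 B cell, 2 of 4 CD4 T cell, and 1 of 7 myeloid genes were higher. Of the 5 genes of dividing cells 3 were lower, and the part of these lists in the result was not tested. The 2 sets were also separate libraries with separate WT cells, so that mouse line and allele cannot be told apart.

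Genes that work beside the proteasome and were not chosen by the rule mostly moved in the same directions. The list held 15 tested genes of proteasome-associated factors, of which 12 and 13 were higher at 48 hr than at 0 hr in WT cells of the *Stat5a* and *Stat5b* sets (34.1 and 33.1% of all genes) and 1 in each was lower (37.7 and 36.8%). The lower one was *Akirin2* (−0.33) in the *Stat5a* and *Ubqln2* (−0.22) in the *Stat5b* set, named here after their values were seen. At 48 hr, 12 and 13 of the list were lower in the KI cells (22.8 and 30.5% of all genes). *Pomp*, the maturation factor of the core, had 62.6, 70.7, and 77.7 RPKM at 0 hr, 159, 163, and 163 RPKM at 48 hr in WT cells, and 74.2, 89.2, and 92.9 RPKM at 48 hr in KI cells of the *Stat5b* set. KI and WT cells did not overlap at 48 hr, with a log2 fold change of −1.001 ± 0.081 (SE, adjusted p = 3.98e-13). *Uchl5*, a deubiquitinase bound to the particle, had the largest KI effect of the list, −0.96 and −1.33, and *Usp14*, another, the largest rise in WT cells, 1.82 and 2.05. *Ubqln2*, a shuttle for ubiquitinated proteins, was at the other end in KI cells, with 0.11 and 0.17, neither past the threshold. Of the 7 genes for ubiquitin, its E1 enzymes, and p97 and its partners, 5 were higher and 2 lower at 48 hr in WT cells of each set, beside the same shares of all genes. *Uba6*, an E1 enzyme, was higher, with log2 fold changes of 1.19 and 1.62. In KI cells at 48 hr 5 and 6 of the 7 were lower than in WT cells (22.8 and 30.5% of all genes). Among these *Vcp*, which encodes p97, had log2 fold changes of −0.42 and −0.83.

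*Nfe2l1*, whose protein is known to raise the standard subunits, did not pass the threshold at 48 hr against 0 hr in WT cells, with log2 fold changes of 0.038 (adjusted p = 0.591) in the *Stat5a* and 0.042 (adjusted p = 0.560) in the *Stat5b* set. It had 14.6, 15.2, and 15.7 RPKM at 0 hr and 17.4, 17.4, and 18.1 RPKM at 48 hr in WT cells and 16.9, 17.0, and 17.9 RPKM at 48 hr in KI cells of the *Stat5b* set, where the WT libraries at 48 hr were above those at 0 hr in RPKM. The log2 fold change between genotypes at 48 hr was −0.11 (adjusted p = 0.169) in the *Stat5a* and −0.11 (adjusted p = 0.132) in the *Stat5b* set. Its activity is known to be set by cleavage and stability of the protein, which mRNA does not show. *Nfe2l2*, its relative, rose from 6.44, 6.47, and 7.56 RPKM to 24.8, 25.5, and 25.7 RPKM in WT cells and stood at 20.8, 22.7, and 23.2 RPKM in KI cells. Among the 7 genes of this list, *Maff*, a small partner protein, fell furthest from 0 to 48 hr in WT cells (−5.75 and −5.31), and *Mafg*, another, had the largest KI effect at 48 hr (−0.50 and −0.85).

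Most class I partners and regulators of the immunoproteasome were higher at 24 hr than at 0 hr and lower again at 48 hr. Of the 7 genes in this list, 6 were higher at 24 hr than at 0 hr in WT cells of each set (30.1 and 29.5% of all genes), and 4 and 5 were lower at 48 hr than at 24 hr (19.9 and 18.4%). *Ifng* had another course, lower at 4 hr than at 0 hr in the *Stat5b* set (−2.48). Its log2 fold change at 4 hr in the *Stat5a* set was −2.22, with replicate 2 of the WT cells included. From 24 to 48 hr it was higher in the *Stat5a* set (0.96, adjusted p = 0.0153) and had 0.34 in the *Stat5b* set (adjusted p = 0.408). *Irf1* had 110.5, 113.3, and 154 RPKM at 0 hr, 207, 218, and 222 RPKM at 24 hr, and 123.5, 125.4, and 136.9 RPKM at 48 hr in WT cells of the *Stat5b* set. In KI cells it had 113.6, 117.2, and 120.6 RPKM at 24 hr, below every WT library, and 152.7, 159, and 171 RPKM at 48 hr, above every WT library. Between genotypes *Irf1* had a log2 fold change of −0.91 ± 0.13 (SE, adjusted p = 2.89e-07) at 24 hr and 0.24 ± 0.13 (SE, adjusted p = 0.0965) at 48 hr. *Nlrc5*, the class I transactivator, had 82.3, 88.6, and 92.9 RPKM in WT and 67.4, 70.8, and 77.0 RPKM in KI cells at 24 hr in the *Stat5a* set, and 57.6, 59.7, and 67.6 RPKM and 76.3, 79.4, and 80.3 RPKM at 48 hr, where it was higher in KI cells (0.30, adjusted p = 0.0136). It had 0.22 in the *Stat5b* set at 48 hr, which did not pass (adjusted p = 0.0591). *Tap1*, the neighbour of *Psmb9*, was higher in KI cells of the *Stat5b* set at 48 hr (0.21, adjusted p = 0.0399), with 110.7, 120.8, and 128.01 RPKM against 94.0, 94.6, and 105 RPKM. *Tap1* had 0.21 in the *Stat5a* set, which did not pass (adjusted p = 0.0625). *Ifng*, which encodes the cytokine that induces the immunoproteasome, was lower in KI cells at both times. It had 53.9, 61.5, and 62.1 RPKM in WT cells and 5.52, 7.58, and 8.68 RPKM in KI cells of the *Stat5b* set at 48 hr, with log2 fold changes of −3.90 at 24 hr and −3.11 at 48 hr.

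**Figure D5:**
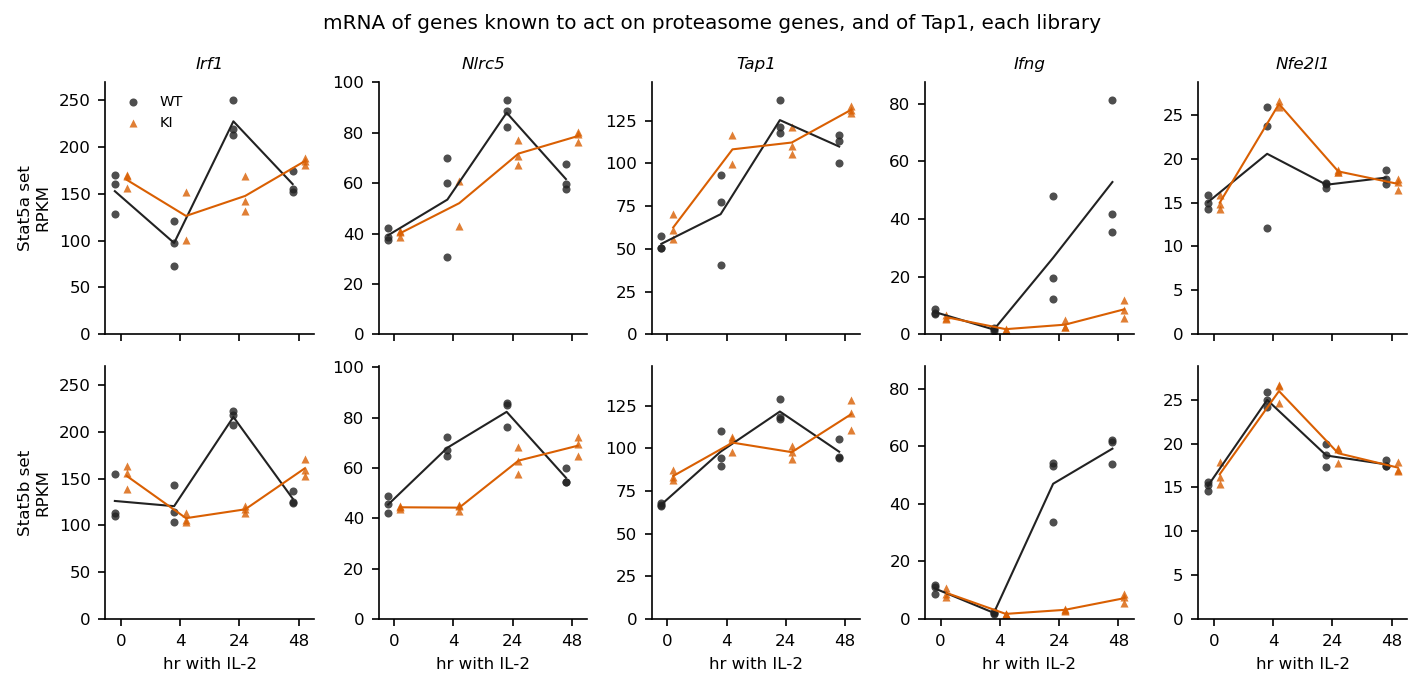
RPKM of *Irf1*, *Nlrc5*, *Tap1*, *Ifng*, and *Nfe2l1* against time with IL-2 (hr, evenly spaced), *Stat5a* set above and *Stat5b* set below; each point is a library, lines join group means, circles are WT and triangles KI. WT levels of *Irf1* and *Nlrc5* are highest at 24 hr, and at 48 hr the KI libraries lie above the WT libraries, while *Ifng* is lower in KI cells at 24 and 48 hr.

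Markers of other cell types moved with genotype beside all of these results. Of the 6 CD8 T cell markers none was at 0 in any of the 47 libraries, and *Cd8b1* was the most abundant in 44. The 6 B cell markers, *Cd79a* or *Cd79b* the most abundant, summed at 48 hr to 11.003, 12.8, and 13.3 RPKM in WT cells and 119.1, 121.02, and 124.7 RPKM in KI cells of the *Stat5b* set and to 13.0, 30.8, and 38.2 RPKM and 96.8, 108.3, and 116.05 RPKM in the *Stat5a* set. All 6 were higher in KI cells in both sets, none was at 0, and KI and WT libraries did not overlap. The 7 myeloid markers whose symbols were matched, of 8 listed, *Lyz2* the most abundant in KI cells, came to 3.18, 3.28, and 4.52 RPKM and 59.6, 75.9, and 94.3 RPKM in the *Stat5b* set and to 3.09, 6.10, and 7.65 RPKM and 22.5, 23.0, and 63.9 RPKM in the *Stat5a* set, with 7 and 6 of 7 higher. In WT cells of the *Stat5b* set at 48 hr *Csf1r* was at 0 in 1 library and *C1qa* and *C1qb* in another. At 24 hr the B cell sum was 24.6, 26.2, and 31.1 RPKM in WT and 164, 166, and 189.8 RPKM in KI cells of the *Stat5b* set, and the myeloid sum 5.97, 7.66, and 10.1 RPKM and 38.6, 64.4, and 76.9 RPKM.

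The remaining lists differed too. The 5 erythroid genes, led by *Hbb-bs* in KI cells, summed at 48 hr to 4.71, 5.63, and 8.27 RPKM in WT cells and 110.8, 169.9, and 206 RPKM in KI cells of the *Stat5b* set, with 5 of 5 higher. They summed in the *Stat5a* set to 6.40, 7.24, and 8.02 RPKM and 17.9, 18.2, and 22.5 RPKM, with log2 fold changes of 1.32 to 1.59, none past the threshold by edgeR and 3 at an unadjusted p of at most 0.05. The 4 CD4 T cell genes summed to 3.40, 3.88, and 4.01 RPKM and 17.2, 17.2, and 17.7 RPKM in the *Stat5b* set and to 4.55, 5.03, and 5.37 RPKM and 12.6, 12.8, and 13.3 RPKM in the *Stat5a* set, with 4 of 4 and 3 of 4 higher in KI cells. Of the 5 NK cell genes, *Eomes* the most abundant, 4 were lower and 1 higher in KI cells in each set, with sums of 113.5, 120.97, and 126.02 RPKM in WT and 52.7, 69.2, and 70.6 RPKM in KI cells of the *Stat5b* set and 105, 117.9, and 121.97 RPKM and 56.9, 61.1, and 64.1 RPKM in the *Stat5a* set. The higher gene in the *Stat5a* set was *Ncr1* (0.85). The paper reports EOMES protein as induced by IL-2 in CD8+ T cells, and less so in *Stat5a* KI cells. The sum of this list thus does not stand for NK cells alone. Of the 6 CD8 T cell markers, 6 and 5 were higher in KI cells of the *Stat5b* and *Stat5a* sets, with sums of 1540.4, 1616, and 1718 RPKM against 1063, 1072, and 1100.5 RPKM in the *Stat5b* set and 1546, 1572, and 1702 RPKM against 1095, 1107, and 1217 RPKM in the *Stat5a* set.

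The 5 genes of dividing cells, *Pcna* the most abundant, were lower in KI cells at 24 hr, all 5 in each set, and mostly at 48 hr. In the *Stat5b* set *Mki67*, *Top2a*, and *Ccna2* were higher in KI cells at 0 and 4 hr, with log2 fold changes of 1.11 to 1.49. At 48 hr they summed to 909.6, 915, and 975 RPKM in WT cells and 311, 368, and 441 RPKM in KI cells of the *Stat5b* set, with 5 of 5 lower, and to 825, 838, and 894 RPKM and 531, 554, and 606 RPKM in the *Stat5a* set, with 4 of 5 lower. KI and WT libraries did not overlap in either set. In whole cultures fewer cells of a type and less mRNA in each of them cannot be told apart, and the part of other cells and of cell division in the proteasome results was not tested.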

How the data were processed

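RNA-seq libraries of 2 mouse lines, 2 genotypes, and 4 times were used as deposited, 1 table a library with 31682 transcripts. The authors deposited read counts per transcript and RPKM, the counts divided by transcript length and mapped reads. Per the submitters' processing notes, Bowtie2 2.2.6, TopHat2 2.0.11, SAMtools 0.1.8, bedtools 2.25.0, and edgeR were used on mm10. The counting program and its use of strand are not given in the sources used here. For each of the 23992 symbols the longest transcript was kept (19649 had only 1), so that mRNA of shorter forms is partly missed. No column of another sample was met.

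Counts of 47 libraries were fitted in edgeR 4.0.16 (R 4.3.3) with 16 group means, TMM scaling, and filterByExpr with a minimum count of 10, which left 15566 genes. Contrasts were tested with glmQLFTest and Benjamini-Hochberg adjustment, and log2 fold changes are given with their SE. Levels are RPKM as deposited, which TMM does not rescale, so that a difference in RPKM and a fold change can differ in size. Depth set a floor of 3 counts at 0.0498 to 0.173 CPM, a limit of counting error only. Replicates differed by a chi-square per gene of 4.83 to 223 in 46 pairs, so that none was a copy. Named were 10 genes of fixed interest (3 constitutive and 3 immunoproteasome catalytic genes, *Psme1* to *Psme4*) and, in each of 6 role lists, the members with the largest and the smallest mean log2 fold change at 48 hr in WT cells, besides those said to be named after their values were seen. The members, lists, and comparisons were chosen with earlier results of these data known, and 3 genes of the companion and marker lists are not reported here. The fit was tested on simulated counts.

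Alternatives were DESeq2 size factors, DESeq2 1.42.0, no filter on low counts, limma 3.58.1 on log2(RPKM + 1) or log2(RPKM + 0.1) for genes of at least 1 RPKM in 3 libraries (fold changes on these scales are smaller for low genes), all 48 libraries, the transcript with the largest mean count, only the groups compared, a replicate block over all groups or within each set and genotype, and each library left out. Among the pairs of groups compared (WT or KI cells at 2 times, and KI against WT cells), same-numbered libraries deviated together in each of 3 pairs (r over 0.1) in WT cells of the *Stat5a* set between 24 and 0 hr (0.210, 0.279, and 0.417) and 48 and 0 hr (0.157, 0.116, and 0.195) and in its KI cells between 48 and 24 hr (0.299, 0.102, and 0.149), and not in the other comparisons with 3 pairs. By highest r, all 3 libraries also matched their own number in further comparisons. In WT cells of the *Stat5b* set these were 24 and 48 against 0 hr and 24 against 4 hr. In WT cells of both sets it was 48 against 24 hr. In KI cells they were 24 and 48 against 0 hr (*Stat5a* set) and 48 against 24 hr (*Stat5b* set). In the rest 1 or 2 of 3 matched over time and 0 or 1 between genotypes. The main fit has no term for this pairing.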

Additional observations from a re-analysis of the deposited data

Results flagged for a closer look

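Differences of differences that passed the threshold are listed here as values. The KI effect at 48 hr was lower in the *Stat5b* than in the *Stat5a* set for 20 members (4 and 3 by limma, 2 with all 48 libraries), and among the genes named by rule these were *Psma5* (−0.55), *Psmb2* (−0.51), *Psmb6* (−0.43), *Psmb7* (−0.43), *Psmc1* (−0.39), *Psmd1* (−0.51), *Psmd7* (−0.41), *Psme3* (−0.46), and *Psmg3* (−0.61), as differences on the log2 scale. Between 24 and 48 hr the KI effect became lower for 18 members (3 by limma, 1 with all 48 libraries) in the *Stat5a* set, with differences of −0.37 for *Psmb6*, −0.48 for *Psmb7*, −0.40 for *Psmc1*, −0.38 for *Psmc6*, −0.39 for *Psmd1*, −0.45 for *Psmd7*, and −0.38 for *Psme3*. In the *Stat5b* set it became lower for 9 members (0 by limma, 1 with all 48 libraries), with −0.33 for *Psmb6*, −0.42 for *Psmb7*, −0.42 for *Psmc1*, −0.43 for *Psmd1*, −0.37 for *Psmd7*, and −0.33 for *Psme3*, and higher for 1, *Psme2*, with 0.37. With the replicate block in edgeR *Psmc6* in the *Stat5a* set had −0.38 and did not pass (adjusted p = 0.0544). The response from 0 to 48 hr was lower in KI than in WT cells for 35 members in the *Stat5a* set (22 and 20 by limma, 20 with all 48 libraries) and 44 in the *Stat5b* set. Markers of B and myeloid cells, of dividing cells, and in the *Stat5b* set of erythroid cells differed between the same groups. Their part in these differences was not tested.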

How the results depend on the processing

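Where a count of members moved by more than 1.5 times, the cause was not tested. With limma on log2(RPKM + 1) and log2(RPKM + 0.1) the counts in the *Stat5a* set were 11 and 11 higher at 4 hr against 0 hr in WT cells, 9 and 8 lower in KI cells at 24 hr, 22 and 20 for the smaller KI response at 48 hr, and 3 and 3 for the KI effect at 48 against 24 hr. In the *Stat5b* set limma gave 2 and 2 higher in KI cells at 0 hr and 0 and 0 for the KI effect at 48 against 24 hr, and 4 and 3 for the difference between sets. With all 48 libraries these were 3 higher in KI cells at 4 hr, 5 lower at 24 hr, 20 for the KI response, and 1 for 48 against 24 hr in the *Stat5a* set, 12 higher at 4 hr in WT cells, 1 higher in KI cells at 0 hr, and 1 for 48 against 24 hr in the *Stat5b* set, and 2 for the difference between sets. With only the groups compared they were 5 at 4 hr in WT cells, 26 from 4 to 24 hr, 0 higher in KI cells at 4 hr, and 34 for 48 against 24 hr in the *Stat5a* set, 2 higher in KI cells at 4 hr and 25 for 48 against 24 hr in the *Stat5b* set, and 32 for the difference between sets. DESeq2 gave 11 higher in KI cells at 0 hr and 22 for 48 against 24 hr in the *Stat5b* set and 29 for the latter in the *Stat5a* set; DESeq2 size factors gave 20 and the most counted transcript 19 for 48 against 24 hr in the *Stat5b* set, and no filter 3 higher in KI cells at 0 hr.

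With 1 library left out the counts ran from 1 to 27 for KI cells at 4 hr in the *Stat5a* set (1 without replicate 1 of the KI cells, which leaves 1 KI library assumed to vary like the other groups), from 1 to 7 for KI cells at 0 hr in the *Stat5b* set, and from 8 to 18 for 48 against 24 hr in the *Stat5b* set, where it was 16 to 18 without replicate 3 of the WT or KI cells at 24 hr, replicate 3 of the WT cells at 48 hr, or replicate 2 of the KI cells at 48 hr. KI cells at 48 hr had 40 to 42 lower members in the *Stat5a* set and 45 in the *Stat5b* set. With counts in place of RPKM the share of *Psmb8* moved by −4.61 and −5.03 points from 24 to 48 hr in WT cells of the *Stat5a* and *Stat5b* sets, and by 4.99 points between KI and WT cells at 48 hr in the *Stat5b* set. Of 8536 values of named genes over all comparisons and settings, 7 turned their sign with the threshold passed in the main or the other fit. All of these were at 4 hr in the *Stat5a* set. Changes of sign where neither fit passed were not counted. Without replicate 2 of the WT cells *Psmb5* against 0 hr was 0.29, *Psme1* against 0 hr −0.064, and *Psme1* in KI against WT cells 0.24, where the values with each library left out ran from −0.15 to 0.29, from −0.064 to 0.76, and from −0.56 to 0.24; with all 48 libraries *Psmb6* in KI against WT cells was −0.046 and *Psmd4* −0.078; with limma *Psme3* in KI against WT cells was 0.058 and 0.059. With the replicate block no count of members moved by over 1.5 times, 41 members were higher at 24 hr in WT cells of the *Stat5a* set, and 3 of 506 named gene values lost their call: *Psmb7* at 4 hr against 0 hr (−0.21, adjusted p = 0.0510), *Psmd4* at 48 against 24 hr (0.19, adjusted p = 0.0532), and *Psmc6* in the KI effect at 48 against 24 hr (−0.38, adjusted p = 0.0544), all in the *Stat5a* set. With a block of the replicate number within each set and genotype, for comparisons over time and chosen after seeing the data, no count of members moved by over 1.5 times and 1 of 308 named gene values lost its call, *Psmd4* at 48 against 24 hr in WT cells of the *Stat5a* set (0.19, adjusted p = 0.0502). At 3 libraries a group small differences stay below the threshold, which does not show that levels were alike.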
